A study of Mus musculus with 4 samples.

Results

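The matrix metalloproteinases (MMPs), the ADAMTS proteases and their tissue inhibitors, the TIMPs, were followed in cultured neonatal mouse testis with and without WIN 18,446. All probe sets whose single gene symbol in the array annotation was an Mmp, an Adamts or a Timp with its number were taken, which gave 70 probe sets of 37 genes among the 45101 probe sets of the array. Of these, 41 probe sets of 25 genes had a mean log2 level of at least 5 over the 4 arrays and were tested. The gelatinase Mmp9, the inhibitor Timp2, Adamts3 and Adamts16 fell with WIN 18,446, and Mmp17 and 1 of 2 probe sets of Adamts4 rose. Each of these calls was lost in some settings of the analysis, and Adamts16 lay at the threshold (limma adjusted p = 0.0499). Mmp17 and that probe set of Adamts4 reached the mean level of 5 only through the treated group. Mmp2, Mmp14, Timp3 and Adamts1, Adamts5 and Adamts9 were not called, with differences from -0.42 to 0.18 log2 units. The collagenases, matrilysin, metalloelastase and Timp4 were at background in both groups.

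Testes of 129 strain mice, taken at 2 days post partum (dpp), were held in organ culture for 24 h before their total RNA was measured on whole-genome Affymetrix expression arrays for the mouse. The vehicle group (2 arrays) received dimethyl sulfoxide, and the treated group (2 arrays) WIN 18,446 at 1 µM, a known inhibitor of the retinaldehyde dehydrogenases that make retinoic acid. Both groups shared strain, age, serum-containing medium and culture time, and no fresh testis was among the samples. The labels number the samples and name no separate animals or cultures behind them, so that the p-values rest on the spread between these 4 samples, and this spread may be technical.

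MMPs and ADAMTS proteases are zinc enzymes that cut proteins outside the cell. MMPs act on collagens, basement membrane and other matrix proteins, some as secreted enzymes and some anchored to the cell surface, and ADAMTS proteases act on proteoglycans such as versican, on procollagens and on microfibrils. TIMPs bind the active site and block the enzymes, and Timp2 also helps the membrane enzyme Mmp14 to activate Mmp2. In the developing testis, cords of Sertoli and germ cells lie on a basement membrane made with the peritubular cells, a substrate of this system.

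The deposited values are log2 levels per probe set, and a difference is WIN 18,446 minus vehicle. Median levels of the 4 arrays ran from 3.72 to 3.83, and Pearson's r over the tested probe sets was 0.992 between the vehicle arrays and 0.985 between the treated arrays. For 18S ribosomal RNA the 5' probe set gave 6.55 on treated array 1 and 8.12 to 8.67 on the other arrays. The defining markers of Sertoli and germ cells were measured above the filter, all 8 of the Sertoli list and all 7 found of the germ cell list. In whole tissue, fewer cells of a type and less RNA per cell cannot be told apart.

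Among the 41 tested probe sets, limma called 8 at an adjusted p under 0.05 (19.5%), 2 higher and 6 lower. Over all 20895 probe sets tested the called share was 5.18%, made up of 2.27% higher and 2.91% lower. The 3 called probe sets of Timp2 measure the same gene: counting only the brightest probe set of each gene, 5 of 25 genes were called, against 6.4% of 10970 genes on the whole array, or 11% of them when the fit held only those probe sets. Of the 41, 4 passed the filter through 1 group alone, with the other group's mean under 5, namely Mmp17, Adamts4 1455965_at, Adamts19 and Mmp9 1448291_at. They include both probe sets called higher, and of the other 37 tested, 0 were called higher and 6 lower. The median difference was -0.15 log2 units over the members and -0.02 over all probe sets tested, and 29 of 41 members had a negative difference, against 53.5% of all probe sets tested. At an unadjusted p under 0.05 stood 16 members, against 22% of all probe sets tested. The 2 groups did not overlap in 32 of 41 members (9 higher and 23 lower), against 53.1% of all probe sets tested. Each call rests on both vehicle arrays, since without either of them limma called 0 probe sets of the whole array (2435 and 2804 at an unadjusted p under 0.05), and 0 members (10 and 8). With no level filter it called 0 of the 70 members (16 at an unadjusted p under 0.05) and 3 probe sets of the whole array.

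**Figure D1:**
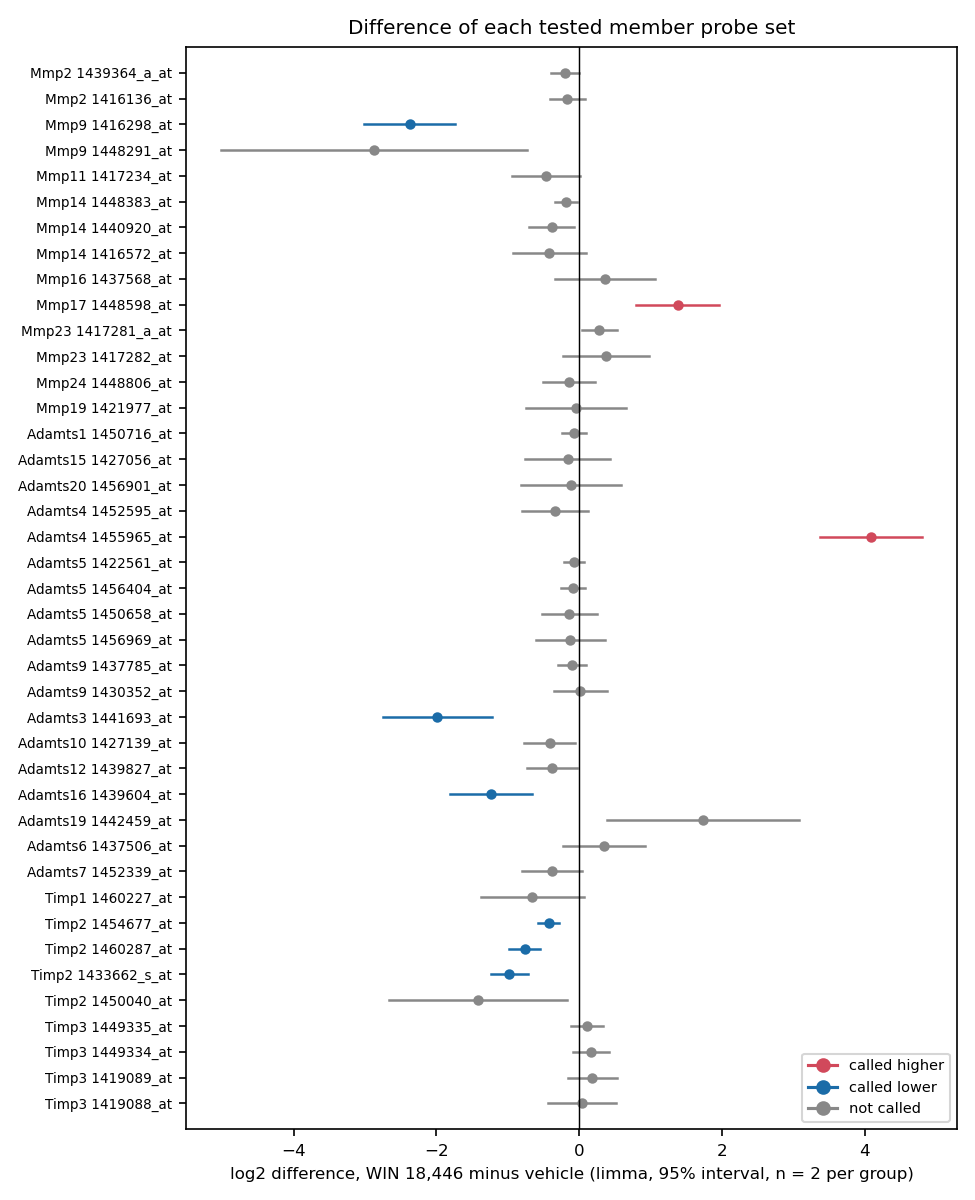
Log2 difference (WIN 18,446 minus vehicle) of the 41 tested probe sets, ordered by role, with the 95% interval from limma; n = 2 arrays per group. The 6 probe sets called lower belong to Mmp9, Adamts3, Adamts16 and Timp2, and the 2 called higher to Mmp17 and Adamts4.

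The 12 genes that were not tested are described first, because most of them sit side by side in the genome. In 9 genes, Mmp1a, Mmp1b, Mmp7, Mmp8, Mmp10, Mmp12, Mmp13, Mmp20 and Timp4, every probe set read at or below 2.22 on all 4 arrays, the highest level among 27 bacterial control probe sets that have no target in mouse RNA. Mmp1a, Mmp1b, Mmp8 and Mmp13 are the interstitial collagenases, which cut fibrillar collagen. Mmp7 is matrilysin, Mmp12 the macrophage metalloelastase, Mmp10 a stromelysin and Mmp20 the protease of tooth enamel. Stromelysin 1, Mmp3, read 2.34 and 2.27 with vehicle and 2.83 and 2.30 with WIN 18,446, just above that background. Of the 2 others, Adamts8 ran from 2.16 to 2.39, and the highest probe set of Adamts18 read 2.58 and 2.40 with vehicle and 3.48 and 2.35 with WIN 18,446. These levels are bounds or close to bounds, and no fold is given.

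By the order of genes in RefSeq (assembly GRCm38.p6), the 8 Mmp genes of this background group lie with Mmp3 and Mmp27 in a known cluster on chromosome 9. The order is Mmp13, Mmp12, Mmp1b, Mmp3, Mmp1a, Mmp10, Mmp8, Mmp27, Mmp20 and Mmp7, with 3 other annotated genes among them. Of these, Gm31751 spans Mmp8, and AV064505 overlaps Mmp20 and Mmp7. Promoters (RefSeq, GRCm38.p6; 250 bases before to 50 after the annotated start) were on hand for 23 of the 37 genes, and 3 motifs were searched on both strands: the AP-1 site TGANTCA, the nuclear receptor element AGGTCA and the TATA box TATAAA, with no overlap between matches in the stretches printed here. Of the 9 genes of the cluster with a member probe set, 8 held an AP-1 match and 9 a TATA match, and 4 held the receptor element. Of the 14 other member genes with a promoter, 0 held an AP-1 match, 0 the receptor element and 1 (Adamts1) a TATA match. Over the whole table, 2425 of 27025 genes held an AP-1 match, 4900 the receptor element and 4234 a TATA match. Counted per promoter, of which a gene can have several, the shares over all 32851 promoters were 7.81%, 16.3% and 13.6%. The GC content of the promoters of the cluster ran from 37.7% to 52%, and that of the other member promoters from 53.3% to 80%, with a median of 52.7% over the whole table. A match describes letters only.

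The 100 bases before the annotated start are shown for the 8 genes of the cluster with an AP-1 match, for Timp2 and Adamts3, the called genes with a promoter in the table, and for Mmp14 and Timp3 as genes above the filter that were not called. Capitals mark a match to any of the 3 motifs, read on either strand (TGACCT is the receptor element on the other strand). The AP-1 match began 35 to 95 bases before the start.
Mmp13 (chr9:7272414-7272513, plus strand): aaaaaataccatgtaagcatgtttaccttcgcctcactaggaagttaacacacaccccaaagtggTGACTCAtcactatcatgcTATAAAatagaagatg
Mmp12 (chr9:7347274-7347373, plus strand): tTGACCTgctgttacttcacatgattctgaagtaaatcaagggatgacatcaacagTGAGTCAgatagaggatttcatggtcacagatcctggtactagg
Mmp1b (chr9:7388027-7388126, minus strand): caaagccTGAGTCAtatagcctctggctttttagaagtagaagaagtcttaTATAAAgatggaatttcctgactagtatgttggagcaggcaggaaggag
Mmp3 (chr9:7445722-7445821, plus strand): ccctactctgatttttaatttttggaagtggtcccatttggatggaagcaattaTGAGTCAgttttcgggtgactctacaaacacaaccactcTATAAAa
Mmp1a (chr9:7464041-7464140, plus strand): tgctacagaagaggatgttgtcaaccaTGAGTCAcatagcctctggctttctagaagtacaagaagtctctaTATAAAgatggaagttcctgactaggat
Mmp10 (chr9:7502242-7502341, plus strand): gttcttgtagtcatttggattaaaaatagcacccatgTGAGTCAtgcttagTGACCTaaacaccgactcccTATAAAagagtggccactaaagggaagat
Mmp20 (chr9:7628131-7628230, plus strand): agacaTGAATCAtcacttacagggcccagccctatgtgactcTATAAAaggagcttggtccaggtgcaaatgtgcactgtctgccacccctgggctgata
Mmp7 (chr9:7691990-7692089, plus strand): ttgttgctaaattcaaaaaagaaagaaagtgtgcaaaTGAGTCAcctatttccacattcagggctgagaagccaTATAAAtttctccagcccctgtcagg
Timp2 (chr11:118355412-118355511, minus strand): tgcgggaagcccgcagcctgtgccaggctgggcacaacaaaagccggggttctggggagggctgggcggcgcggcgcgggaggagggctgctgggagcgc
Adamts3 (chr5:89883335-89883434, minus strand): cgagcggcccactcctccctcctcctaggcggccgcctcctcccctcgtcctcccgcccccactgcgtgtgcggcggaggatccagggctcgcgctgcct
Mmp14 (chr14:54431498-54431597, plus strand): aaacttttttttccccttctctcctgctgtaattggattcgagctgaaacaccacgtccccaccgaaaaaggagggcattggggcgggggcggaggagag
Timp3 (chr10:86300312-86300411, plus strand): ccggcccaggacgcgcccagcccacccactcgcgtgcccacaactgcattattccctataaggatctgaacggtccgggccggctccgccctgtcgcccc
The 8 stretches of the cluster were chosen for an AP-1 match, so their capitals follow from that choice. Where a gene had several annotated starts, the one with the match is shown. The 4 other stretches hold no capitals. Adamts1, also above the filter and not shown, has a TATA match at position -32 from its start.

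**Figure D2:**
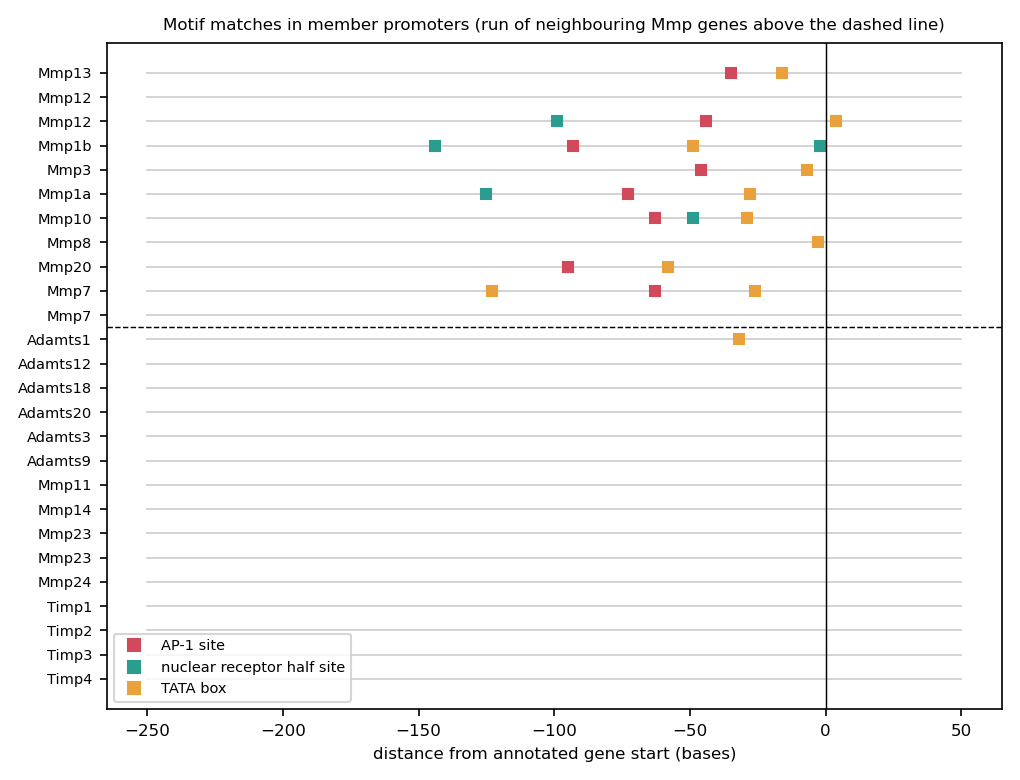
Position of each motif match (distance in bases from the annotated start, from 250 before to 50 after it) in the 26 promoters of 23 member genes; genes with 2 annotated starts have 2 lines. The AP-1 matches lie in 8 of the 9 genes of the neighbouring Mmp run above the dashed line, and 0 in the 14 genes under it.

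**Figure D3:**
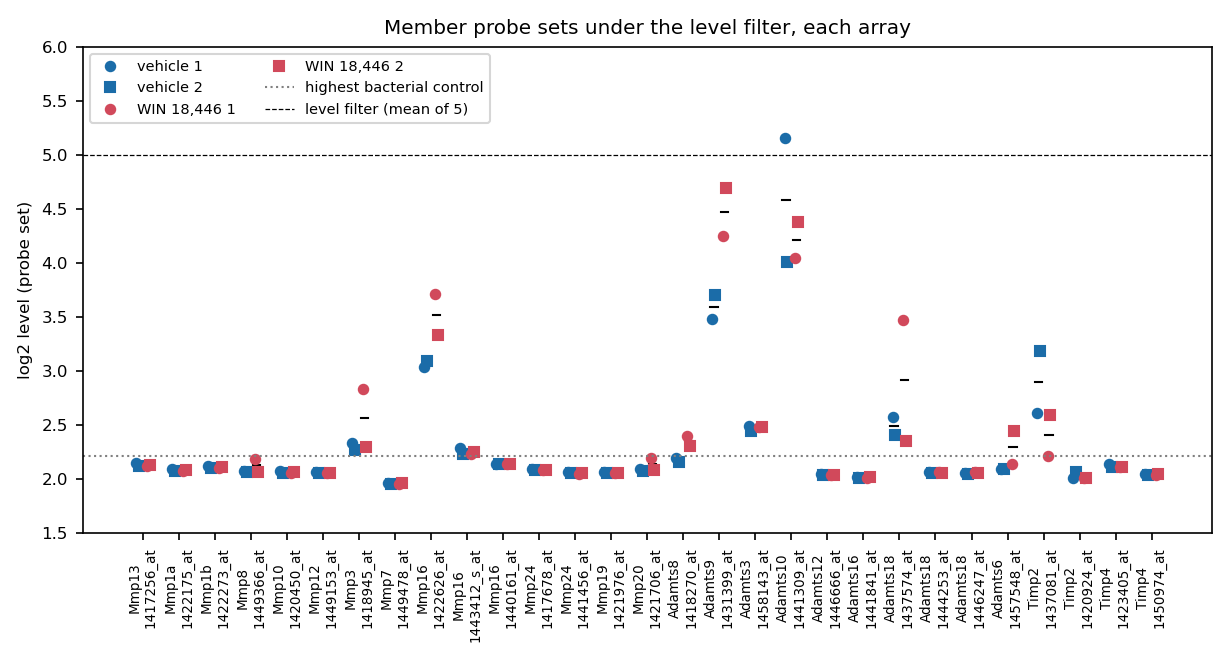
Log2 level on each array of the 29 member probe sets with a mean under 5; black bars are group means (n = 2), the dotted line is the highest bacterial control at 2.22. In 19 of them all 4 arrays lie at or below the dotted line.

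Adamts10, Adamts9, Mmp16, Timp2 and several other genes had weak second probe sets beside tested ones, so that 29 probe sets in all lay under the filter. Only 1 of these reached a level of 5 on any array, the second probe set of Adamts10, with 5.16 and 4.01 with vehicle and 4.05 and 4.38 with WIN 18,446, where the groups overlapped.

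The secreted gelatinases cut denatured collagen and the collagen of basement membranes. Mmp9, the gelatinase B of migrating and inflammatory cells, read 8.79 and 8.92 with vehicle and 6.20 and 6.76 with WIN 18,446 in its brighter probe set (1416298_at). Both treated arrays were lower than both vehicle arrays, by more than the gap inside either group. The difference was -2.37 log2 units (SE 0.25, 5.18-fold lower, limma adjusted p = 0.0176), from 8.85 ± 0.09 to 6.48 ± 0.40 (SD, n = 2). A second probe set of Mmp9 (1448291_at) read 6.13 and 6.97 with vehicle and 2.44 and 4.92 with WIN 18,446. It had the same order of groups but a wide gap between the treated arrays, and was not called (difference -2.87, adjusted p = 0.134). Without treated array 1 its difference was -1.63, and without treated array 2 it was -4.11 (adjusted p = 0.0234, with a range of 0.0199 to 0.419 over the alternatives).

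Neutrophils store Mmp9 in their granules, and a list of 10 neutrophil genes, not all of them granule genes, was read beside it. Of 9 found on the array, S100a8 and S100a9 were tested and both fell (differences -6.06 and -5.12, adjusted p = 0.0257 and 0.0351), while Ltf, Ngp, Mpo, Elane and Cxcr2 were at background on all 4 arrays. The summed level of the list, as log2 of summed linear levels, was 13.42 and 13.46 with vehicle and 7.04 and 9.27 with WIN 18,446, lowest on treated array 1 as in both Mmp9 probe sets. S100a8 and S100a9 lead this sum. The part of neutrophils in the Mmp9 difference was not tested. For the macrophage list, of which 3 of 8 genes were tested and 0 called, the summed level was 8.87 and 9.52 with vehicle and 8.48 and 9.41 with WIN 18,446.

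Mmp2, the gelatinase A made by stromal cells, did not pass the test. Its brighter probe set read 13.56 and 13.42 with vehicle and 13.35 and 13.24 with WIN 18,446. Its 2 probe sets differed by -0.19 and -0.16 log2 units, with 95% intervals from -0.39 to 0.0041 and from -0.40 to 0.08.

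Among the membrane-anchored MMPs 1 of 8 tested probe sets was called. Mmp17, an enzyme held on the membrane by a lipid anchor, read 4.58 and 4.48 with vehicle and 5.86 and 5.96 with WIN 18,446, close within each group and apart between them. It rose by 1.38 log2 units (SE 0.23, 2.61-fold, adjusted p = 0.0397). Its mean of 5.22 was just above the filter, which it passed only through the treated group (means 4.53 and 5.91). Without treated array 1 the call was lost (1.43, adjusted p = 0.0673, with a range of 0.0222 to 0.317 over the alternatives that tested it), and without treated array 2 it was under the filter.

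Mmp14, which cleaves collagen at the cell surface and activates Mmp2, had 3 tested probe sets, all lower on both treated arrays and 0 called. Their differences were -0.18, -0.39 and -0.42, with adjusted p from 0.157 to 0.314. The third was -0.14 without treated array 1 and -0.69 without treated array 2. For the first of them, whose levels were 13.27 and 13.27 with vehicle and 13.10 and 13.07 with WIN 18,446, the 95% interval ran from -0.33 to -0.03. Mmp23, a small enzyme released from the membrane by cleavage, stood higher on both treated arrays in both probe sets (0.28 and 0.38, adjusted p = 0.18 and 0.43), and neither was called. Its second difference was 0.67 without treated array 1 and 0.086 without treated array 2. Mmp16 (0.36) and Mmp24 (-0.15), 2 more membrane-type enzymes, were not called either, and Mmp16 ran from 0.067 to 0.65 with the choice of vehicle array. Mmp11, stromelysin 3, a stromal enzyme that leaves the cell in active form, read 12.73 and 12.74 with vehicle and 12.55 and 11.99 with WIN 18,446 (difference -0.47, adjusted p = 0.231), and Mmp19, another secreted MMP, differed by -0.04 (95% interval -0.74 to 0.65). Without treated array 1 Mmp11 was called at -0.74 (adjusted p = 0.0311, with a range of 0.0311 to 0.609 over the alternatives), and its difference without treated array 2 was -0.19.

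The ADAMTS proteases of the proteoglycan-cleaving branch were measured by 11 tested probe sets of 6 genes. Adamts1, which cleaves versican and is induced before ovulation in the ovary, read 12.56 and 12.53 with vehicle and 12.45 and 12.49 with WIN 18,446. Its difference of -0.07 had a 95% interval from -0.25 to 0.10. The 4 probe sets of Adamts5, the main aggrecanase of mouse cartilage, differed by -0.14 to -0.08, and the 2 of Adamts9, a versican-cleaving enzyme, by -0.10 and 0.02. None of these was called, and the widest interval among them, for an Adamts5 probe set, ran from -0.60 to 0.36. Adamts15 (-0.16) and Adamts20 (-0.12), which also cleave versican, overlapped between groups.

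Adamts4, the other aggrecanase, gave different results in its 2 probe sets. The probe set 1455965_at read 3.97 and 4.16 with vehicle and 8.44 and 7.87 with WIN 18,446, so that both treated arrays were far above both vehicle arrays. It rose by 4.09 log2 units (SE 0.28, 17-fold, adjusted p = 0.00869). It passed the filter only through the treated group, with a vehicle mean of 4.07. The probe set 1452595_at read 10.18 and 10.65 with vehicle and 10.07 and 10.08 with WIN 18,446, lower on both treated arrays by less than the gap between the vehicle arrays (difference -0.34, adjusted p = 0.355, or -0.58 and -0.11 without vehicle array 1 or 2). The annotation ties the 2 probe sets to different sequence entries, so what 1455965_at measures is uncertain and no direction is given for the gene.

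Adamts3 removes the propeptide of fibrillar procollagens and activates a lymphatic growth factor, Vegfc. It read 8.15 and 7.46 with vehicle and 5.95 and 5.69 with WIN 18,446, with the groups well apart and the wider gap between the vehicle arrays. It fell by 1.99 on the log2 scale (SE 0.30, 3.97-fold, adjusted p = 0.0333). Without treated array 1 the difference was -2.12 and without treated array 2 it was -1.86, and limma's adjusted p was then 0.057 and 0.0565, within 0.0118 to 0.300 over the alternatives. Without a variance trend it was 0.0648. A weak second probe set read 2.45 to 2.49 on all 4 arrays.

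Of the other ADAMTS genes, 1 of 6 tested probe sets was called. Adamts16, a gonad and kidney protease whose disruption in rats causes undescended testes, read 9.12 and 8.70 with vehicle and 7.82 and 7.53 with WIN 18,446. It fell by 1.24 log2 units (SE 0.23, 2.36-fold), with an adjusted p of 0.0499 that lies at the threshold. The call was lost without treated array 1 (0.0661), without treated array 2 (0.0773), after quantile normalization (0.0528) and without a variance trend (0.0794), while the difference stayed between -1.45 and -1.02 and the adjusted p between 0.0209 and 0.354 over the alternatives. The second probe set of the gene was at background on all arrays. Its relative Adamts19 had the opposite sign, with 4.69 and 4.47 with vehicle and 7.08 and 5.54 with WIN 18,446 (difference 1.73, adjusted p = 0.145). Treated array 1 carried most of this, since the difference was 0.96 without it and 2.50 without treated array 2. Adamts19 passed the filter only through the treated group, with a vehicle mean of 4.58.

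The 4 remaining genes of this group were not called. Adamts10 and Adamts6, which act on fibrillin microfibrils, differed by -0.41 (95% interval -0.77 to -0.06) and 0.35 (-0.22 to 0.92). Adamts7 and Adamts12, which cleave a cartilage matrix protein, both differed by -0.38 (adjusted p = 0.258 and 0.193). In these 4 genes both treated arrays lay on 1 side of both vehicle arrays, as in 53.1% of all probe sets tested. Leaving out a treated array moved Adamts10 between -0.57 and -0.26, Adamts6 between 0.12 and 0.58 and Adamts7 between -0.52 and -0.25.

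**Figure D4:**
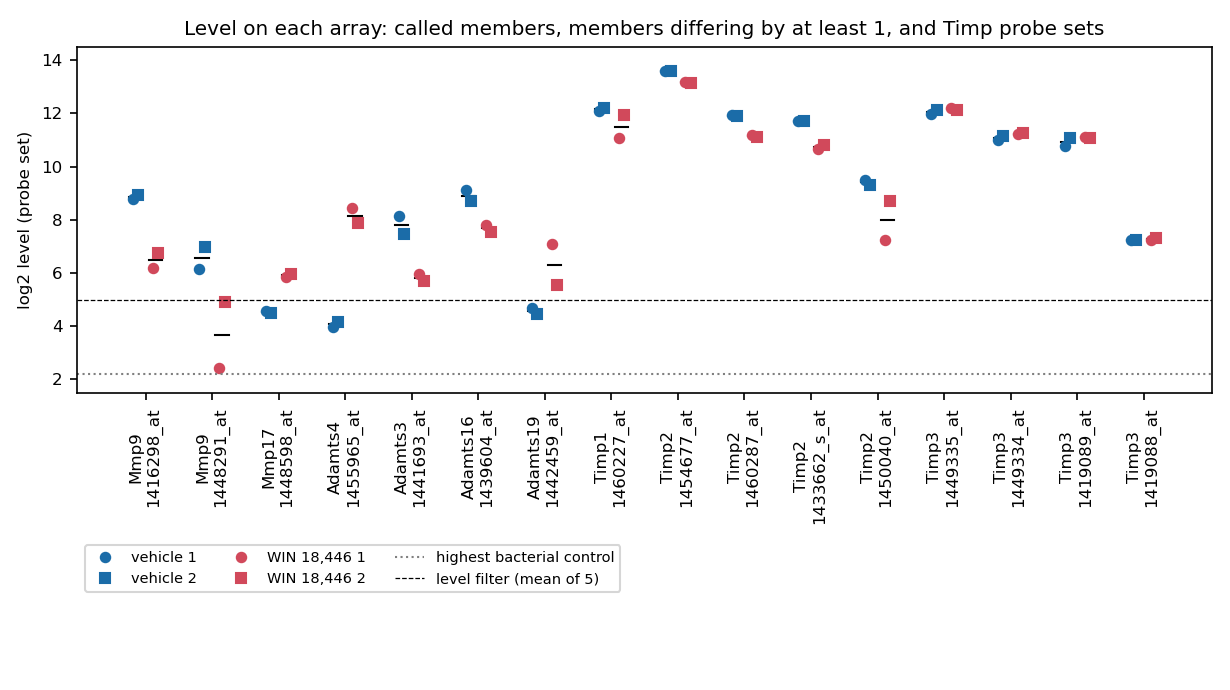
Log2 level on each array for the called members, members differing by at least 1 log2 unit, and the tested Timp probe sets; circles are replicate 1 and squares replicate 2, black bars group means (n = 2). The Timp2 probe sets lie lower on both treated arrays, the Timp3 probe sets do not, and Mmp9 1448291_at, Adamts19, Timp1 and Timp2 1450040_at show a wide gap between the treated arrays.

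Timp2 was the called inhibitor. Its probe set 1454677_at read 13.61 and 13.60 with vehicle and 13.20 and 13.16 with WIN 18,446. The probe set 1460287_at read 11.94 and 11.90 against 11.19 and 11.11, and 1433662_s_at read 11.72 and 11.72 against 10.66 and 10.82. In each of these 3 the gap between the groups was several times that inside them. They fell by 0.43 (SE 0.06, 1.35-fold, adjusted p = 0.0262), 0.77 (SE 0.09, 1.7-fold, adjusted p = 0.0199) and 0.98 (SE 0.10, 1.97-fold, adjusted p = 0.0166). Without a variance trend the first 2 lost their call (adjusted p = 0.11 and 0.0539, with ranges of 0.0108 to 0.321 and 0.0116 to 0.294 over the alternatives). The fourth tested probe set, 1450040_at, read 9.51 and 9.30 with vehicle and 7.24 and 8.72 with WIN 18,446 and was not called (-1.42, adjusted p = 0.182). Without treated array 1 it differed by -0.68, and without treated array 2 by -2.17 (adjusted p = 0.0198, within 0.0198 to 0.592 over the alternatives). The probe sets thus share a direction and differ in size, although the annotation ties 1450040_at and 1460287_at to the same sequence entry. The 2 others of the gene were under the filter, 1 of them at background.

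Timp3, the inhibitor that stays bound to the matrix and blocks Adamts4 and Adamts5, was not called in any of 4 probe sets. The brightest read 11.98 and 12.12 with vehicle and 12.21 and 12.12 with WIN 18,446, and the dimmest 7.23 and 7.23 against 7.23 and 7.32. The other 2 read 11.01 and 11.14 against 11.23 and 11.25, and 10.77 and 11.07 against 11.12 and 11.08. The differences were 0.05 to 0.18 log2 units with adjusted p from 0.394 to 0.92, and the upper ends of the 95% intervals were 0.34 to 0.52.

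Timp1, which binds the precursor of Mmp9, read 12.11 and 12.20 with vehicle and 11.06 and 11.94 with WIN 18,446. Both treated arrays were lower, unequally, and the gene was not called (difference -0.66, SE 0.28, adjusted p = 0.262). Treated array 1 decides its size: the difference was -0.22 without that array and -1.10 without treated array 2 (adjusted p = 0.0198, within 0.0198 to 0.638 over the alternatives). In the RefSeq table Timp1, Timp3 and Timp4 each lie within a synapsin gene, Syn1, Syn3 and Syn2. Syn1, read for this overlap, fell from 7.46 and 6.85 to 4.54 and 4.70 (difference -2.54, limma adjusted p = 0.0199). It was named only after its values were seen, and it passed the filter only through the vehicle group, with a treated mean of 4.62. The tested probe set of Syn2 differed by -0.24 (adjusted p = 0.758), and those of Syn3 were under the filter.

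**Figure D5:**
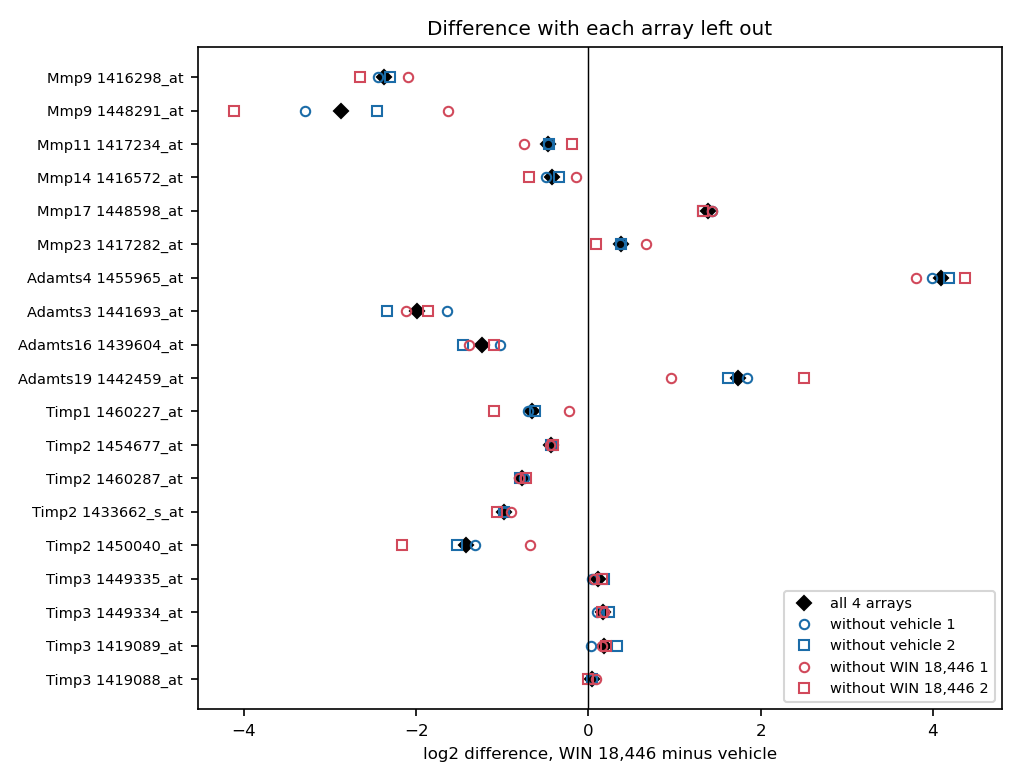
Log2 difference of 19 member probe sets with all 4 arrays and with each array left out in turn. The Timp2 probe sets 1454677_at, 1460287_at and 1433662_s_at keep nearly the same value, while Mmp9 1448291_at runs from -4.11 to -1.63 and Timp1 from -1.10 to -0.22 with the choice of treated array.

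The treated arrays differed from each other by over 0.5 log2 units in 9 of the 41 tested members, and the vehicle arrays in 4. In these 9, treated array 1 was the lower in both Mmp9 probe sets, Timp1, Timp2 1450040_at, Mmp14 1416572_at and Mmp23 1417282_at, and the higher in Adamts19, Mmp11 and Adamts4 1455965_at. It also stood apart in 18S ribosomal RNA, as given above, and its part in these differences was not tested beyond leaving it out. Leaving it out, limma called 6 members, 1 higher and 5 lower, and 3.54% of all probe sets tested. Without treated array 2 it called 9, 2 higher and 7 lower, and 6.8% of all probe sets tested. Adamts4 1455965_at was 3.80 and 4.38, and Mmp9 1416298_at -2.09 and -2.66, without treated array 1 or 2. Mmp9 1416298_at, Adamts4 1455965_at and the 3 called Timp2 probe sets kept their direction in both fits. Adamts4 1455965_at passed the filter only through the treated group, where it is high.

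Other genes of extracellular proteolysis were read from a list of 56 genes, of which 35 were tested, each through its brightest probe set. The list was chosen with earlier results of these data known. Of the 35, 3 rose, 0 fell and 32 were not called, against 2.94% higher and 3.46% lower over the 10970 genes tested, and the list's median difference was -0.07, against -0.02 over those genes. A2m, alpha-2-macroglobulin, a plasma inhibitor that traps proteases of many classes, read 6.14 and 6.75 with vehicle and 9.09 and 9.15 with WIN 18,446. It rose by 2.68 log2 units (SE 0.26, 6.39-fold, adjusted p = 0.0147), far beyond the gap between the vehicle arrays. Bcan, the proteoglycan brevican, a substrate of Adamts4 and Adamts5, read 9.85 and 9.99 against 11.12 and 11.72 (difference 1.5, adjusted p = 0.0302), in a probe set whose name marks possible cross-hybridisation. Fbln2, fibulin 2, a basement membrane protein, was the third (2.23, adjusted p = 0.0275). Without a variance trend A2m alone was called (0.038), with Bcan at 0.0748 and Fbln2 at 0.0619. Without either vehicle array 0 were called. The calls without treated array 1 were A2m, Acan and Bcan, and without treated array 2 they were A2m, Bcan and Dcn, 2 of the 3 in each case.

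The inhibitor and activator genes beside A2m were not called. Reck, a membrane inhibitor of MMPs, differed by -0.19 (adjusted p = 0.48) and the convertase Furin, which activates Mmp14 and ADAMTS precursors, by -0.03 (adjusted p = 0.924). Bsg, which induces MMPs in neighbouring cells, differed by 0.16 and Lrp1, a receptor that clears MMPs and TIMPs, by -0.25 (adjusted p = 0.26 and 0.265). In the plasminogen system Plat, the tissue plasminogen activator, read 9.71 and 9.72 with vehicle and 9.12 and 8.77 with WIN 18,446 (difference -0.77, adjusted p = 0.0784), and Serpini1, the inhibitor neuroserpin, differed by 0.048 (adjusted p = 0.913), while Plau and Plg were at background on all 4 arrays.

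None of 9 membrane-anchored ADAM proteases was called in limma (1 at an unadjusted p under 0.05, Adam23 at -0.31 with an adjusted p of 0.0942). Adam12 and Adam22 stood next by p, at -0.34 and -0.50 (adjusted p = 0.228 and 0.373). The sheddases Adam10 and Adam17 differed by -0.11 and 0.03. The single tested ADAMTS-like gene, Adamtsl2, stood 0.78 higher (adjusted p = 0.113). Adamtsl4, untested with a mean of 4.67, read 5.83 and 5.27 with vehicle and 3.61 and 3.97 with WIN 18,446. Among 14 tested substrates and cofactors, Vcan, the versican cut by Adamts1, Adamts4, Adamts5 and Adamts9, read 12.78 and 12.74 against 12.79 and 12.71 (difference -0.01, adjusted p = 0.954). Acan, aggrecan, read 7.35 and 7.08 with vehicle and 6.17 and 4.96 with WIN 18,446, lower on both treated arrays and not called (-1.65, adjusted p = 0.106). Efemp1, a fibulin, differed by -0.38 (adjusted p = 0.0645), and Dcn, the small proteoglycan decorin, by -0.53 (adjusted p = 0.222).

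Markers of the cells that a cultured neonatal testis can hold were also set beside the members. Over the 10970 genes tested, each through its brightest probe set, 2.94% were called higher and 3.46% lower. Of 8 Sertoli genes 4 fell (Sox9, Wt1, Cldn11 and Dhh) and 0 rose, with 3 of 8 differences positive (Amh at 1.25, adjusted p = 0.0575), a median of -0.39 and a summed level of 16.10 and 16.07 with vehicle and 15.78 and 15.76 with WIN 18,446. The peritubular list held 1 called lower of 4 tested (14.51 and 14.51 against 14.25 and 14.26), with Cnn1 at background. The list of Leydig cells and stroma held 1 called lower of 7 tested (16.21 and 16.11 against 16.02 and 15.90). In both lists all tested differences were negative, with medians of -0.32 and -0.31. For the endothelial list, 1 of 7 tested fell and none of its 10 genes was at background on all arrays (13.48 and 13.58 against 13.27 and 13.32). All 7 differences were negative, with a median of -0.80, and the sum is led by Cd34 (-0.11). Robo4 (-1.01, adjusted p = 0.0435) was the called gene, and Tek differed by -1.17 (adjusted p = 0.0509). The germ cell list held 1 called lower of 7 tested (14.91 and 14.93 against 14.74 and 14.73). That gene was Sall4 (-0.60), while 4 of the 7 differences were positive and the list's median was 0.18. For the list of duct and tunica epithelium, 0 of 3 were called (10.28 and 10.42 against 10.52 and 10.59), with Upk3b at background. The part of cell makeup in the differences of Timp2, Adamts3 and Adamts16 was not tested.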

How the data were processed

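RNA was amplified before labelling, per the labels' protocols. The authors deposited 1 log2 level per probe set and array. RMA and GCRMA are both named in the submitters' processing notes, with no role or version. That the levels are log2 was inferred from their span, 1.74 to 16.2. The 64 control probe sets were left out, and of 45037 others the 20895 with a mean of at least 5 were tested. Symbols were those of GEO's platform annotation, in which 34945 probe sets have 1 symbol, 932 several and 9160 none. WIN 18,446 was set against vehicle in limma 3.58.1 (R 4.3.3; linear model with moderated, trended variances; two-sided; no covariate), with Benjamini-Hochberg adjustment over all probe sets tested. The fit was tested on simulated data. An exact permutation test of 2 arrays against 2 cannot go below p = 0.333, so none is given. Levels at or below 2.22 were read as bounds.

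Called probe sets, all Timp genes and probe sets differing by at least 1 were to be given per array, other tested members by value, and partner genes where called or among the 3 of smallest p in their group. Furin, Plau, Plg, Adam10, Adam17, Adamtsl4, Vcan, Syn1 and Syn2 are outside that rule and were named after their values were seen. The members and lists were chosen with earlier results of these data known. Alternatives were 3 other level filters, 2 normalizations, robust moderation or no variance trend, a replicate block, leaving out each array, 1 probe set per gene and an adjusted p under 0.1. The planned search of protein sequences for the zinc-binding site was not made here. Promoters come from RefSeq (GRCm38.p6).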

Additional observations from a re-analysis of the deposited data

How the results depend on the processing

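The count of 8 called members (2 higher, 6 lower) was the same with 2 of 4 arrays at 5 or above, equal array medians, robust moderation and an adjusted p under 0.1, 7 after quantile normalization and 9 with the replicate block. The share of all probe sets called was 5.77%, 5.94%, 5.88% and 10.6% in the first 4 of these settings. It was 6.32% after quantile normalization and 7.02% with the replicate block. With no level filter limma called 0 members, higher or lower (16 at an unadjusted p under 0.05), 0 partner genes (8) and 3 probe sets of the whole array, and the median member difference over all 70 was -0.011. With a mean of at least 7, Mmp17, Adamts4 1455965_at and Adamts3 went untested. In that setting limma called 5 of 34 members, 0 higher, and 6.89% of all probe sets tested. Without a variance trend it called 4 members (2 lower) and 1 partner gene, and 372 probe sets of the whole array in place of 1083. With 1 probe set per gene, 5 members were called, 1 higher, and 11% of the 10970 genes. With each array left out, members called ran from 0 to 9, higher ones from 0 to 2, lower ones from 0 to 7, partner genes from 0 to 3, and the median member difference from -0.23 to -0.11. Of the 41 member differences, 27 moved by over 1.5 times in at least 1 of these fits, and 0 of the 27 were called with all arrays. A call also rests on the difference against the gap inside the groups of the same arrays. That 0 was therefore largely fixed in advance and lends the calls no weight. The fits with an array left out take the lone array of a group to have the spread seen in the other group. The replicate numbers are not said to mark a shared litter or day. Same-numbered arrays did not deviate together (r = 0.01 over 20895 probe sets, which are not independent), and with the replicate block 1467 probe sets were called in all, 5 partner genes and Mmp9 1448291_at as the ninth member. At an adjusted p under 0.1, 6 partner genes were called.

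Small differences changed sign without being called in either fit. With equal array medians Adamts9 1430352_at was -0.021. With each array left out, Adamts9 1430352_at ran from -0.068 to 0.10, Mmp19 from -0.39 to 0.30, Adamts15 from -0.41 to 0.082, Adamts20 from -0.33 to 0.095, Adamts5 1450658_at from -0.33 to 0.049, Adamts5 1456969_at from -0.30 to 0.054 and Timp3 1419088_at from -0.0019 to 0.092. The cause was not tested.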
